A study of Mus musculus with 2 samples.

Results

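Mki67, Top2a, Cdk1 and Ccnd1 are 4 cell cycle genes of the 480 on a custom probe panel, and were picked by name. They were measured in mouse skin by Xenium, in which probes for each gene are read out under a microscope in a tissue section, so that every RNA molecule has a position and most can be given to a cell. There were 2 sections of fixed, paraffin-embedded whole skin, cut at 5 µm, both from B6/129 females, and no treatment is named. One was a WT control and the other, Utx-cKO, came from mice in which Krt14-Cre had deleted Kdm6a (Utx), a histone demethylase gene, in tissues that express keratin 14. The deletion therefore concerns the skin epithelium, and the cells of the dermis are not its labelled target. The labels used here do not state the age or number of the animals, the skin sites, or which exons the Kdm6a probes cover. With 1 section per group there was no test, and every interval below is an exact 95% interval that covers counting error only and leaves out differences between animals.

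Mki67, Top2a and Cdk1 are expressed mainly in cells that are copying or dividing their chromosomes. Mki67 encodes a protein that coats mitotic chromosomes and is the standard marker of proliferating cells, Top2a encodes a topoisomerase that untangles copied DNA, and Cdk1 encodes the kinase that drives entry into mitosis. Ccnd1 encodes cyclin D1, which binds its partner kinases in the first gap phase, answers growth signals and can be made in cells that are not dividing. In skin, division is known mainly from the basal layer of the epidermis, the rim of the sebaceous gland, the upper follicle and the matrix of growing hair.

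The promoter windows of Mki67, Top2a and Cdk1 are shown because transcripts of these 3 genes were found in the same cells. Each window runs from 250 bases before to 50 after the annotated start, on the minus strand of GRCm38.p6 in RefSeq, and is written 5′ to 3′ along the gene. The Mki67 window is chr7:135716330-135716629, the Top2a window chr11:99024140-99024439 and the Cdk1 window chr10:69352863-69353162. Capitals mark matches on either strand to TTTGAA or TTCGAA, which are forms of the cell cycle homology region, and to CCAAT, the CCAAT box. Both elements are known from promoters of genes that are expressed late in the cell cycle.
Mki67: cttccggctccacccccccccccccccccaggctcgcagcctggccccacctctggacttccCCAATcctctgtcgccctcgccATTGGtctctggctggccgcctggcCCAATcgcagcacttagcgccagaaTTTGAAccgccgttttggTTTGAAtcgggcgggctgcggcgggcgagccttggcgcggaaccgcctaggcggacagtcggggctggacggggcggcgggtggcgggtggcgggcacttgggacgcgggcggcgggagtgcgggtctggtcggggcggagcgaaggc
Top2a: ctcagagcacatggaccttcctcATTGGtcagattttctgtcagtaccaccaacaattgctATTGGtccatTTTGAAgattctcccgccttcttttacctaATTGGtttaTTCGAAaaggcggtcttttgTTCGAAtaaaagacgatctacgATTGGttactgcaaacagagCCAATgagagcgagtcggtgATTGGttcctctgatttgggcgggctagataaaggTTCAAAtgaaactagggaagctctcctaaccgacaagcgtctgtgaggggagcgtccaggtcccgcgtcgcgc
Cdk1: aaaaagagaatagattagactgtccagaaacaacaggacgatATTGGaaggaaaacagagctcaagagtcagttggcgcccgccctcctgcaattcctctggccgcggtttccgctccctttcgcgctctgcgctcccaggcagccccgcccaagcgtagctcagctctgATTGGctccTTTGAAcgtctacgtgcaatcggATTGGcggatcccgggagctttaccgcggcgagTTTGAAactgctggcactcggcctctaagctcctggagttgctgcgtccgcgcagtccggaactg
Each of the 3 windows held 2 matches to TTTGAA, and the Top2a window also held 2 to TTCGAA. The CCAAT letters had 3 matches in the Mki67 window, 6 in that of Top2a and 3 in that of Cdk1. These capitals do not overlap each other. Of 32851 RefSeq windows of this length, 17.9% held TTTGAA, 1.56% TTCGAA and 37.4% CCAAT, and 7.52% held CCAAT together with either of the other letters. GGCGGG, the core of a GC box, had 6, 2 and 2 matches in the windows of Mki67, Top2a and Cdk1, and was in 35.3% of all windows. TTGGCGC, a form of the E2F site, had 1 match in each of the Mki67 and Cdk1 windows and was in 2.45% of all windows. In the Cdk1 window it shares 1 base with a GGCGGG match. Another form, TTCCCGC, had no match in these 3 windows and was in 4.6% of all. A match is a description of the letters and says nothing of whether a factor binds there. Ccnd1 is named only.

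The WT section held 40371 segmented cells and the Utx-cKO section 52308. Of these, 33263 and 37395 had 20 transcripts or more and were kept, and their medians were 62 and 48. The sections shared 2 cell identifiers, which were kept as different cells. Kdm6a itself was detected in epithelial cells of both sections, at 2780 CPM (counts scaled to a panel total of 1000000 in each set of cells) in WT and 2228 CPM in Utx-cKO (log2 ratio -0.32, -0.39 to -0.25), and in non-epithelial cells at 2763 and 2596 CPM (-0.09). In cells the 4 genes had 10603 counts in WT and 10443 in Utx-cKO. The lowest, Cdk1, had 1130 and 1138, and the highest of 20 negative control probes 117 and 199. Of the transcripts of Mki67, Top2a and Cdk1, between 92.0% and 93.2% lay inside cells in WT and between 95.8% and 96.6% in Utx-cKO, against 74.7% and 84.9% for all panel genes. Between 60.0% and 65.4% (WT) and 65.0% and 70.7% (Utx-cKO) of their counts in cells lay over the nucleus, against 46.0% and 48.8% for all genes. Ccnd1 was close to the panel in this, with 44.1% and 46.1% over the nucleus.

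Each section held 4 separate strips of tissue, numbered here from left to right. Strips are not replicates, and their animals are not given. WT strip 3 stood apart from the other WT strips for all 4 genes, in epithelial and in other cells alike. In its epithelial cells Mki67 was higher than in the other WT strips together by a log2 ratio of 0.73 (0.59 to 0.86), Top2a by 0.72, Cdk1 by 0.85, and Ccnd1 had a ratio of -1.41 (-1.58 to -1.24). In non-epithelial cells the ratios were 1.38 for Mki67, 1.36 for Top2a, 1.63 for Cdk1 and -1.27 for Ccnd1. Among the epithelial cells, 16.3% of 337 genes were 1.5-fold or more above the other WT strips in strip 3 and 11.0% that far below, and in non-epithelial cells 17.2% and 17.5% of 372 genes. Shares and levels that rest on WT strip 3 are for the most part given below with and without it. Whether it came from another animal or site than its neighbours is not stated.

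A cell was called cycling where its counts of Mki67, Top2a and Cdk1 came to 2 or more. There were 942 such cells in WT (2.83%) and 914 in Utx-cKO (2.44%). The 3 genes tended to be found in the same cells. Of the 1033 WT epithelial cells with an Mki67 count, 33.2% (30.3 to 36.2) also had Top2a, against 4.56% of the epithelial cells without Mki67. In Utx-cKO these shares were 33.3% and 4.43%. Cdk1 followed Mki67 likewise, being in 19.4% of WT epithelial cells with Mki67 and 1.78% of those without, and in 16.8% and 1.96% in Utx-cKO. Ccnd1 did so far less: it was in 13.8% of WT epithelial cells with Mki67 and 10.8% of those without, and in 9.71% and 7.91% in Utx-cKO. Cells with Mki67 had more transcripts in all, with medians of 98 against 68 in WT and 73.5 against 56 in Utx-cKO, and this depth is shared by all genes of a cell.

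Of the 601 cycling epithelial cells in WT, 23.8% held all 3 genes, 33.3% Mki67 and Top2a without Cdk1, and 19.3% Mki67 alone. The 700 in Utx-cKO divided in much the same way, with 21.3%, 37.4% and 15.7%. Top2a alone made the call in 5.99% and 7.43%, and Cdk1 alone in 1.66% and 1.43%. Mki67 thus entered into most calls in both sections.

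Among epithelial cells, 601 of 14551 in WT were cycling, 4.13% (3.81 to 4.47), and 700 of 18743 in Utx-cKO, 3.73% (3.47 to 4.02). The log2 ratio of these shares was -0.15 (-0.30 to 0.01). WT strips had 2.28%, 4.47%, 6.92% and 2.04% from strip 1 to strip 4, and Utx-cKO strips 1.53%, 4.51%, 3.01% and 4.61%. The strips overlapped: WT strip 3 was the highest and Utx-cKO strip 1 the lowest. Without WT strip 3 the WT share was 2.93% (2.61 to 3.28), lower than in Utx-cKO. When each cell was thinned to 20 transcripts at random, so that depth was equal, 4.73% of WT and 5.34% of Utx-cKO epithelial cells kept at least 1 of the 3 transcripts. Without thinning, 12.7% of WT and 12.2% of Utx-cKO epithelial cells had at least 1, so that at the same call thinning turned the order. The order of the sections thus depended on that strip and on depth.

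Cells were grouped into 14 clusters without the cell cycle genes, 7 of them epithelial, and named where at least 3 of a class's markers were among the 10 leading genes of a cluster. Basal keratinocyte-like cells (led by Tgm3 and Wnt3, with Krt5, Itga6, Col17a1 and Lamb3) had 6.68% cycling cells in WT (5.90 to 7.54) and 6.48% in Utx-cKO (5.72 to 7.31), or 4.84% in WT without strip 3. Cd3e and Cd3g of T cells also led this cluster, and 10.2% of its cells had a count of a Cd3 gene. Among its cycling cells, 15.9% in WT and 8.50% in Utx-cKO had such a count, against 13.6% and 6.73% of its other cells; the part of T cells in the cycling share was not tested. After thinning, 7.69% of its cells in WT and 9.08% in Utx-cKO kept at least 1 of the 3 transcripts, the highest values of the named classes. WT strips of this cluster ranged from 2.89% to 10.7% and Utx-cKO strips from 2.71% to 7.94%.

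Sebocyte-like cells (Cidea, Fa2h, Elovl3), the lipid-filled cells of the sebaceous gland, had 6.49% in WT and 5.14% in Utx-cKO, where WT strips lay between 3.80% and 7.81% and Utx-cKO strips between 2.25% and 7.32%. Upper hair follicle-like cells (Sprr1a, Krt79, Gata6) had 3.92% (3.05 to 4.95) and 4.85% (4.19 to 5.58), with WT strips between 2.49% and 7.45% and Utx-cKO strips between 1.64% and 6.77%. After thinning, sebocyte-like cells had 5.03% and 5.06% with at least 1 transcript and upper hair follicle-like cells 6.02% and 7.45%, so that no order between these classes can be read. Granular keratinocyte-like cells (Lce1m, Lor, Flg2, also led by Krt1 and Krt77 of the layers beneath), which are known to have left the cycle, had 3.20% and 1.98%. Hair follicle stem cell and outer root sheath-like cells (Lhx2, Tbx1, Krt6b) had the lowest share of the named epithelial classes in both sections, 0.695% (0.441 to 1.04) and 0.858% (0.571 to 1.24). They kept that place after thinning, with 1.63% and 2.15%. An unnamed follicle cluster led by Krt17, Serpinb11 and Lhx2 had 8 cycling cells of 533 in WT and 18 of 602 in Utx-cKO, 1.5% and 2.99%, and their intervals overlap.

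**Figure D1:**
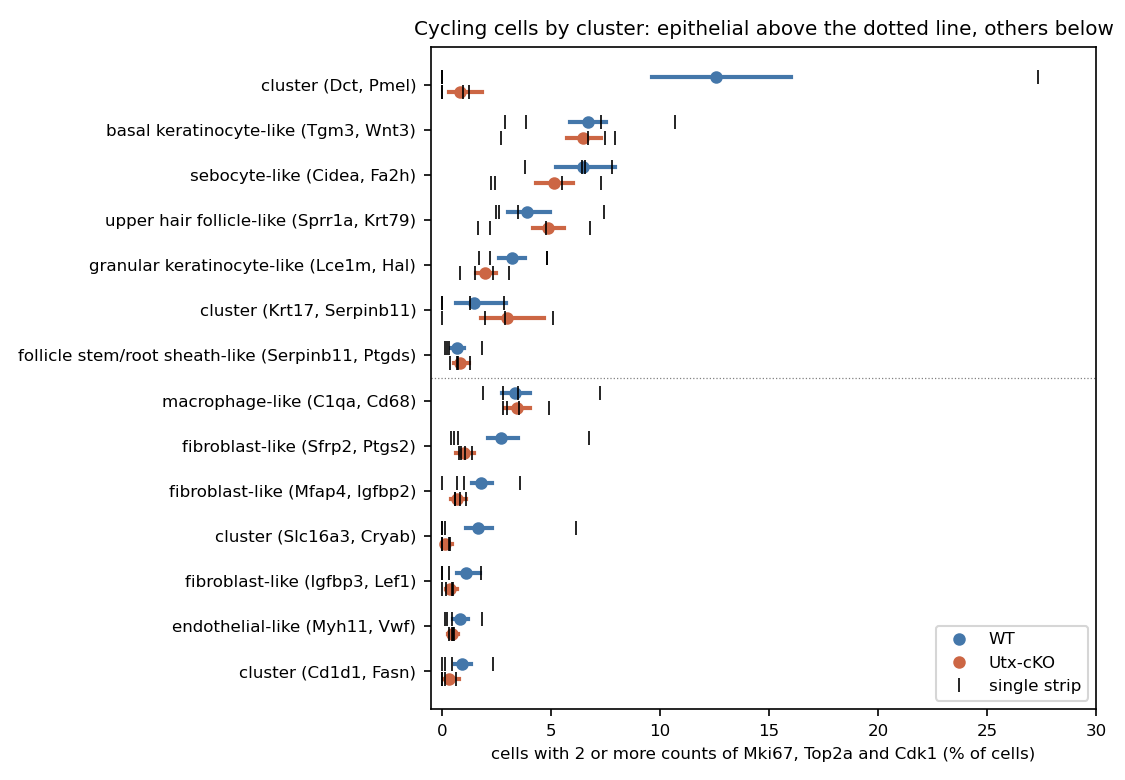
Share of cells with 2 or more counts of Mki67, Top2a and Cdk1 in each cluster (percent, horizontal axis) for WT (blue) and Utx-cKO (orange); bars are exact 95% intervals for counting error and vertical ticks are single strips. Basal keratinocyte-like cells sit near 6.5% in both sections, and the cluster led by Dct and Pmel stands apart in WT through a single strip at 27.3%.

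The unnamed epithelial cluster led by the melanocyte genes Dct and Pmel together with Tbx1, Lef1 and Lhx2 of the follicle had the highest cycling share of any cluster in WT, 56 of 445 cells or 12.6% (9.65 to 16.0), against 6 of 698 or 0.860% (0.316 to 1.86) in Utx-cKO. All 56 cells were in WT strip 3, where they made up 27.3% (21.3 to 34.0) of 205 cells. The other WT strips held 0 of 240 cells, which allows a share of up to 1.25% at 3 counts, and up to 1.53% by the exact interval. In WT, 64.3% of the cycling cells of this cluster had a count of a melanocyte marker, against 49.9% of its other cells, and each of the 56 had another cycling cell within 30 µm. The difference between the sections in this cluster thus lay in that strip. Mki67 was at 9317 CPM there, and between 0 and 577 CPM in the other WT strips and 584 and 855 CPM in the Utx-cKO strips.

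Among non-epithelial cells, 341 of 18712 in WT were cycling, 1.82% (1.64 to 2.02), and 214 of 18652 in Utx-cKO, 1.15% (1.00 to 1.31), with a log2 ratio of -0.67 (-0.92 to -0.42). WT strips had 0.453%, 1.19%, 3.70% and 0.729%, and Utx-cKO strips 1.5%, 0.715%, 1.42% and 1.41%. WT strip 3 was the highest of all 8 strips, and without it the WT share was 0.883% (0.726 to 1.06). After thinning, 3.34% of WT and 3.75% of Utx-cKO cells kept at least 1 transcript. The panel level of Mki67 was 820 CPM in both sections, so that no order of the sections is read from the share.

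Macrophage-like cells (C1qa, Cd68, C5ar1) had the highest share of the non-epithelial clusters, 3.36% (2.77 to 4.03) in WT and 3.44% (2.89 to 4.06) in Utx-cKO. WT strips had 1.89%, 2.81%, 7.26% and 3.47% and Utx-cKO strips 4.93%, 2.82%, 3.00% and 3.54%. Cells with a Cd3 count were more frequent among the cycling ones, 20% against 7.63% in Utx-cKO and 10.9% against 8.31% in WT; the part of T cells was not tested. In the 3 fibroblast-like clusters the WT shares were 2.73% (led by Sfrp2), 1.81% (Mfap4) and 1.13% (Igfbp3), against 1.01%, 0.717% and 0.376% in Utx-cKO. Without WT strip 3 the WT shares were 0.659%, 0.640% and 0.148%, so that the higher WT values rested on that strip. Endothelial-like cells (Vwf, Plvap and Cdh5, led by Myh11 of smooth muscle and with Mmrn1 and Prox1 of lymph vessels) had 0.825% and 0.475%. A cluster led by Cd1d1 and Fasn had 0.915% and 0.335%.

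The cluster led by Slc16a3, Cryab and Tnnt1, genes known from skeletal muscle fibres, which do not divide, was used to read the background of the call. In Utx-cKO 3 of its 1832 cells were called, 0.164% (0.0338 to 0.478), at a median of 61 transcripts. In WT outside strip 3 it was 1 of 1440 cells, 0.0694%. In WT strip 3, however, 31 of 504 cells of this cluster were called (6.15%), at a median of 136 transcripts. In WT strip 2, at a median of 151, 1 of 664 was called (0.151%). All WT cells of this cluster together had a median of 117 transcripts. In Utx-cKO the interval of this cluster (0.0338 to 0.478) was overlapped by those of endothelial-like cells (0.277 to 0.759), the Igfbp3 (0.180 to 0.690) and Mfap4 (0.438 to 1.10) fibroblast-like clusters, the cluster led by Cd1d1 (0.109 to 0.780) and that led by Dct and Pmel (0.316 to 1.86). The shares of these 5 clusters in Utx-cKO are not told apart from background. Granular keratinocyte-like cells, which are known to have left the cycle, had higher shares in both sections than the cluster led by Slc16a3. A share outside these 5 clusters is therefore not shown to be above background. In WT as a whole 1.65% (1.13 to 2.32) of the cluster led by Slc16a3 was called. The WT shares of endothelial-like cells, the fibroblast-like clusters and the clusters led by Cd1d1 and by Krt17 lay below that or had overlapping intervals. Hair follicle stem cell and outer root sheath-like cells did too. These WT shares are not told apart from that value either. Of the 32 called WT cells of the cluster led by Slc16a3, 31 lay in strip 3, so this comparison depends on how much of each cluster lay there. In WT strip 3 the share of that cluster was 6.15%, and whether all of it is background was not tested.

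**Figure D2:**
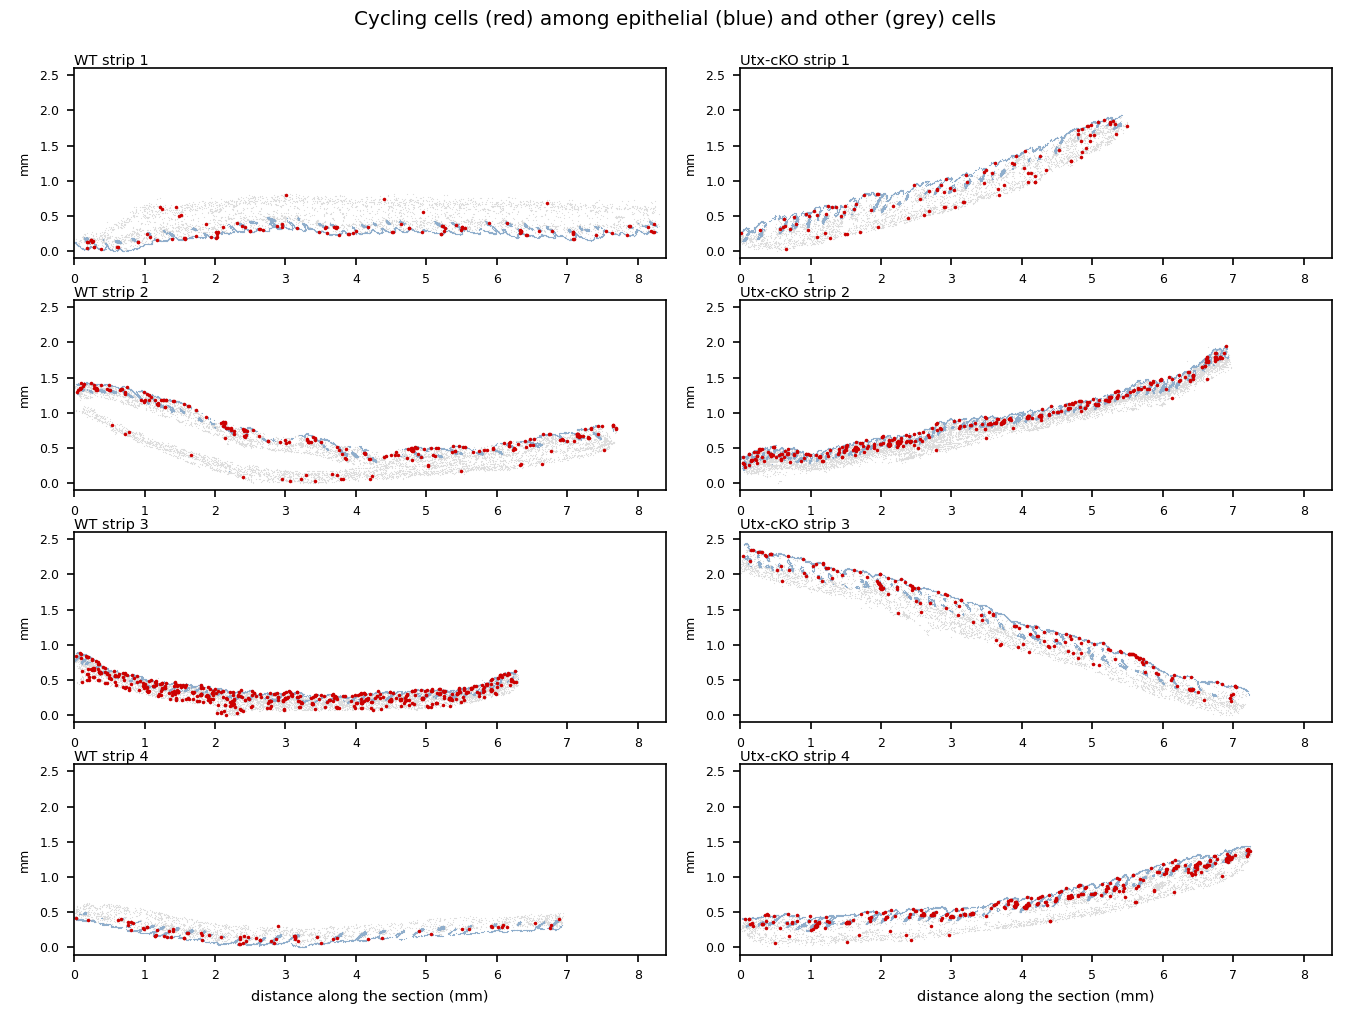
Positions of cycling cells (red) among epithelial (blue) and other (grey) cells in the 4 strips of each section, with both axes in mm. In most strips red points follow the blue epithelium, and in WT strip 3, where 3.70% of the non-epithelial cells were called, they also fill the grey tissue beneath it.

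In epithelial cells Mki67 was at 1387 CPM in WT (1322 to 1455) and 1369 CPM in Utx-cKO (1307 to 1433; log2 ratio -0.02, -0.12 to 0.08). WT strips had 1052, 1172, 1834 and 1086 CPM, and Utx-cKO strips 970, 1333, 1154 and 1766 CPM. WT strip 3 and Utx-cKO strip 4 were the high ones, and the other strips of both sections overlapped. Top2a was at 1064 and 1168 CPM, a ratio of 0.14 (0.03 to 0.24). Its strips had 827, 837, 1402 and 939 CPM in WT and 704, 1259, 995 and 1389 CPM in Utx-cKO. Utx-cKO strip 1 was the lowest of all 8 for Mki67, Top2a and Cdk1. Cdk1 was at 446 and 481 CPM, a ratio of 0.11 (-0.06 to 0.28), with strips at 329, 334, 615 and 382 CPM in WT and 237, 608, 333 and 531 CPM in Utx-cKO.

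Ccnd1 had another order of strips. It was at 1513 CPM in WT (1445 to 1584) and 1282 CPM in Utx-cKO (1221 to 1344), a ratio of -0.24 (-0.34 to -0.14). WT strips had 1661, 2412, 748 and 1716 CPM and Utx-cKO strips 1744, 1014, 1552 and 1235 CPM. WT strip 3, the highest WT strip for the other 3 genes, was the lowest of all for Ccnd1, and in Utx-cKO strip 1, the lowest for those genes, was the highest for Ccnd1. None of the 4 genes was 1.5 times apart between the sections in epithelial cells, where 15.7% of 439 genes were. The strips of the sections overlapped for each of them, while 7.29% of genes had all strips of one section above all strips of the other. When WT strip 3 was left out the ratios were 0.30 for Mki67, 0.45 for Top2a, 0.49 for Cdk1 and -0.63 for Ccnd1, so that 0 were past 1.5-fold upward, as 17.8% of genes were, and Ccnd1 was past it downward, as 3.64% were. Without WT strip 2 the Ccnd1 ratio was 0.10.

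In non-epithelial cells Mki67 was at 820 CPM in each section (ratio 0.00, -0.13 to 0.13). WT strips had 361, 540, 1352 and 767 CPM and Utx-cKO strips 1031, 518, 1008 and 1274 CPM. WT strip 3 was again the highest, and the other WT strips lay below 3 of the 4 Utx-cKO strips. Top2a was at 712 and 777 CPM (0.13, -0.01 to 0.27) and Cdk1 at 406 and 394 CPM (-0.05, -0.24 to 0.15). Top2a strips had 462, 412, 1166 and 683 CPM in WT and 808, 592, 1026 and 1014 CPM in Utx-cKO, and Cdk1 strips 233, 224, 715 and 273 CPM against 335, 359, 377 and 560 CPM. For both genes WT strip 3 was the highest of the 8 strips. Ccnd1 was at 1588 and 1939 CPM (0.29, 0.20 to 0.38), with strips at 1656, 2055, 835 and 2606 CPM in WT and 3580, 1378, 1810 and 2123 CPM in Utx-cKO. Its lowest strip was WT strip 3 and its highest Utx-cKO strip 1.

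None of the 4 was 1.5 times apart in non-epithelial cells either, where 24.7% of 450 genes were, and none had strips that did not overlap, which 1.56% of genes did. Leaving out WT strip 3 put Mki67 (0.66), Top2a (0.77) and Cdk1 (0.77) past 1.5-fold upward in Utx-cKO, together with 34.7% of all genes, and left Ccnd1 at -0.06 where 2.44% were past it downward. The median ratio of all genes was 0.12 in epithelial and 0.22 in non-epithelial cells, and 0.17 and 0.29 without WT strip 3; relative to these medians each ratio with and without that strip is lower by that amount. Per cell, without scaling to the panel total, the ratios of all 4 genes were below 0 in both kinds of cell, between -0.11 and -0.49 in epithelial and between -0.20 and -0.54 in non-epithelial cells.

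**Figure D3:**
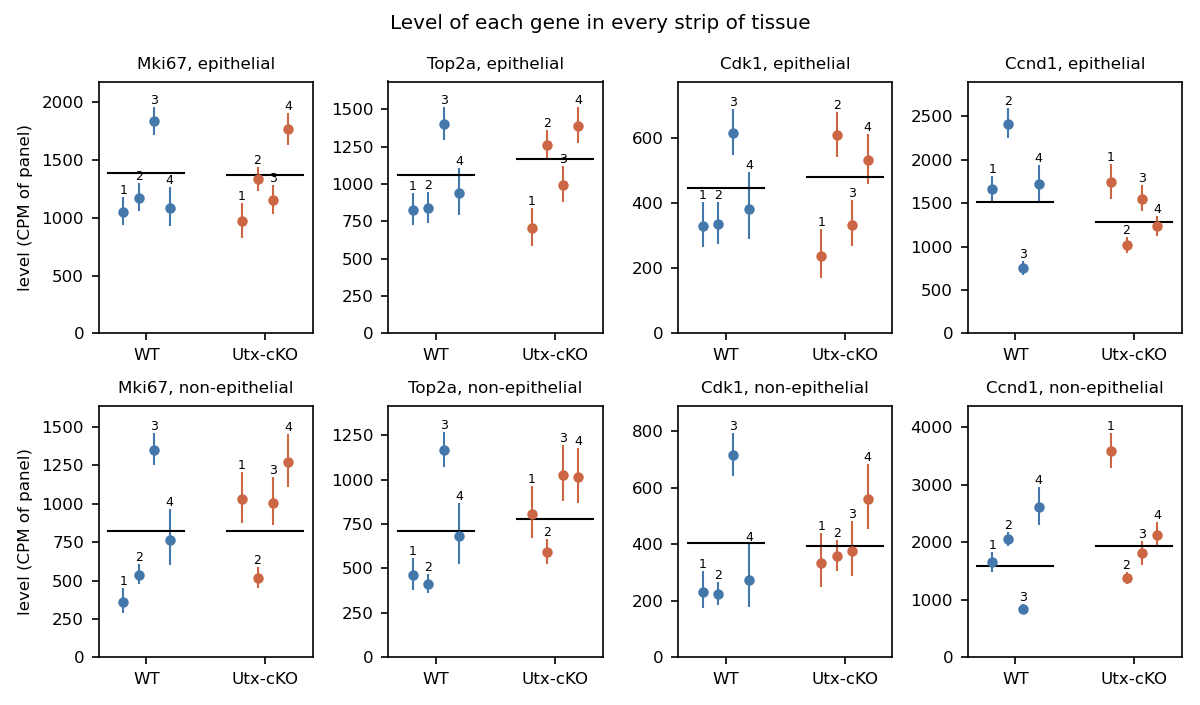
Level of each gene (CPM of the panel, vertical axis from 0) in each strip, numbered, for epithelial (top) and non-epithelial cells (bottom), with exact 95% Poisson intervals and a line at the level of the whole section. WT strip 3 is the highest WT strip for Mki67, Top2a and Cdk1 and the lowest for Ccnd1, and the strips of WT and Utx-cKO overlap in every panel.

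Within clusters, Mki67, Top2a and Cdk1 had like ratios in upper hair follicle-like cells. Mki67 was at 1376 CPM in WT and 2061 CPM in Utx-cKO (0.58, 0.32 to 0.85), Top2a at 1199 and 1848 CPM (0.62, 0.34 to 0.91) and Cdk1 at 540 and 789 CPM (0.55, 0.12 to 0.98). Of these Top2a was past 1.5-fold upward, as were 17.5% of the 309 genes compared in this cluster. Top2a strips had 1307, 1735, 898 and 1020 CPM in WT and 757, 1822, 1182 and 2334 CPM in Utx-cKO. The strips overlapped, with both the lowest and the highest in Utx-cKO, and here WT strip 3 was the lowest WT strip. Without it the WT level of Top2a was 1403 CPM, and that of Mki67 1629 CPM. In basal keratinocyte-like cells the ratios were 0.18 for Mki67, 0.27 for Top2a and 0.23 for Cdk1, at 2596 against 2942 CPM for Mki67. In granular keratinocyte-like cells they were -0.44, 0.02 and -0.17, and in sebocyte-like cells -0.05, -0.15 and -0.32. None of the 4 genes passed 1.5-fold in those 3 classes, where 18.8%, 15.5% and 23.2% of genes did.

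In macrophage-like cells Mki67 was at 1801 and 2319 CPM (0.36, 0.16 to 0.57), Top2a at 1367 and 1772 CPM (0.37) and Cdk1 at 637 and 874 CPM (0.46), all under 1.5-fold, which 25.1% of genes passed. The ratios past 1.5-fold downward were Mki67 (-2.81) and Top2a (-2.62) in the cluster led by Dct and Pmel (13.4% of genes), Mki67 (-0.62) and Cdk1 (-0.84) in the Mfap4 fibroblast-like cluster (2.09%), Mki67 (-0.67) in the Igfbp3 fibroblast-like cluster (8.24%), and Mki67 (-1.49) and Top2a (-0.60) in the cluster led by Slc16a3 (7.38%). In each of these clusters WT strip 3 was the highest WT strip for the gene. Mki67 in the Mfap4 cluster had 364, 420, 1943 and 1066 CPM in WT strips and 747, 554, 958 and 1112 CPM in Utx-cKO strips. Without WT strip 3 its WT level was 497 CPM, below the 729 CPM of Utx-cKO. In the Igfbp3 cluster the WT level of Mki67 without that strip was 89.9 CPM, from 4 counts, against 372 CPM. Ccnd1 was past 1.5-fold upward in the Igfbp3 cluster (0.65, 0.29 to 1.01), with 8.63% of genes, at 835 and 1309 CPM, but the WT level without strip 3 was 1258 CPM. In the other 5 clusters no member with enough counts was past 1.5-fold either way. The shares of all genes that were so were 21.1% in the Sfrp2 fibroblast-like cluster, 8.68% in endothelial-like cells, 9.72% in the cluster led by Cd1d1, 12.2% in hair follicle stem cell and outer root sheath-like cells and 13.9% in the follicle cluster led by Krt17.

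Ccnd1 was for the most part found outside cycling cells. In epithelial cells, 84.7% of its counts in WT and 86.8% in Utx-cKO were in cells without a count of Mki67, Top2a or Cdk1, and 5.53% and 4.10% in cycling cells. In non-epithelial cells the first shares were 91.5% and 89.6%. Levels of Ccnd1 by state are given as CPM of the panel without Mki67, Top2a and Cdk1. Over all epithelial cells, those without these transcripts had 1531 CPM in WT and 1301 CPM in Utx-cKO, and cycling cells 1459 and 1056 CPM. The ratio of cycling over other cells was -0.07 (-0.37 to 0.22) in WT and -0.30 (-0.67 to 0.05) in Utx-cKO.

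Basal keratinocyte-like cells differed from this mixture. Those without cycling transcripts had 2760 CPM of Ccnd1 in WT (2539 to 2995) and 2927 CPM in Utx-cKO (2676 to 3195), and cycling ones 1487 CPM (1062 to 2025) and 1493 CPM (1014 to 2119). The ratio of cycling over other basal keratinocyte-like cells was -0.89 (-1.39 to -0.43) in WT and -0.97 (-1.54 to -0.45) in Utx-cKO. In WT without strip 3, where Ccnd1 was low and cycling cells many, it was -0.66 (-1.28 to -0.10). Relative to the panel, cycling cells thus had less Ccnd1 than the others of this class in both sections. They also held more transcripts, with medians of 99 against 56 in WT and 76 against 46 in Utx-cKO. Per cell the means of Ccnd1 were closer, 0.163 against 0.192 counts in WT, 0.126 against 0.160 in Utx-cKO, and 0.221 against 0.224 in WT without strip 3. Upper hair follicle-like cells went the other way in WT, where cycling ones had 1795 CPM, from 12 counts, against 813 CPM (1.14, 0.13 to 2.03), but not in Utx-cKO, with 1215 against 1255 CPM (-0.05, -0.81 to 0.63). In non-epithelial cells cycling cells had more Ccnd1 than the others in Utx-cKO, 3553 against 1887 CPM (0.91, 0.48 to 1.32). In WT they had 1478 against 1609 CPM (-0.12, -0.54 to 0.26), and 3310 against 1988 CPM (0.74, 0.17 to 1.25) once strip 3 was left out.

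Among cells without cycling transcripts, Ccnd1 was highest in the cluster led by Dct and Pmel, at 4649 CPM in WT (3810 to 5617) and 3519 CPM in Utx-cKO (2920 to 4205), and in macrophage-like cells, at 3652 CPM (3377 to 3942) and 3531 CPM (3235 to 3848). The intervals of these clusters overlap in both sections, and basal keratinocyte-like cells came next. The Mfap4 fibroblast-like cluster (2211 and 2280 CPM), the follicle cluster led by Krt17 (2190 and 2572 CPM) and endothelial-like cells (1833 and 2192 CPM) followed, and their intervals overlap. Hair follicle stem cell and outer root sheath-like cells had 1718 and 1408 CPM, granular keratinocyte-like cells 987 and 731 CPM and upper hair follicle-like cells 813 and 1255 CPM. The remaining clusters of the dermis were in the same range, with 981 and 1433 CPM in the Sfrp2 cluster, 819 and 1298 CPM in the Igfbp3 cluster, 927 and 978 CPM in the cluster led by Cd1d1, and 740 and 880 CPM in that led by Slc16a3. Sebocyte-like cells were the lowest, at 414 CPM (312 to 539) and 361 CPM (290 to 444).

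Across the sections, Ccnd1 outside cycling cells had a log2 ratio of -0.24 (-0.34 to -0.13) in epithelial cells, and -0.62 without WT strip 3. Weighting the epithelial clusters equally in WT and Utx-cKO gave -0.08. In non-epithelial cells the ratio was 0.23 (0.13 to 0.33), and -0.08 without WT strip 3. Among clusters, upper hair follicle-like cells (0.63, 0.25 to 1.02) and the Igfbp3 fibroblast-like cluster (0.67, 0.29 to 1.05) had the highest ratios, but 0.24 and 0.12 without WT strip 3. The Sfrp2 fibroblast-like cluster came next at 0.55 (0.21 to 0.88), and had 0.47 (0.10 to 0.84) without WT strip 3. Leaving out that strip raised the ratio of the cluster led by Slc16a3 from 0.25 to 0.46, and turned that of endothelial-like cells from 0.26 to -0.15. Granular keratinocyte-like cells had -0.43 (-0.69 to -0.18), and -0.76 (-1.02 to -0.49) without that strip. Basal keratinocyte-like cells had 0.08 (-0.09 to 0.26), and -0.33 (-0.52 to -0.15) without it, so that the direction turned. Leaving it out also lowered the ratio from -0.20 to -0.66 in sebocyte-like cells, from -0.29 to -0.62 in hair follicle stem cell and outer root sheath-like cells and from -0.40 to -0.82 in the cluster led by Dct and Pmel. In cycling macrophage-like cells Ccnd1 was at 2848 CPM in WT, from 30 counts, and 5217 CPM in Utx-cKO, from 46, a ratio of 0.87 (0.18 to 1.59). In WT without strip 3 as the base this ratio was 0.43 (-0.30 to 1.20).

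**Figure D4:**
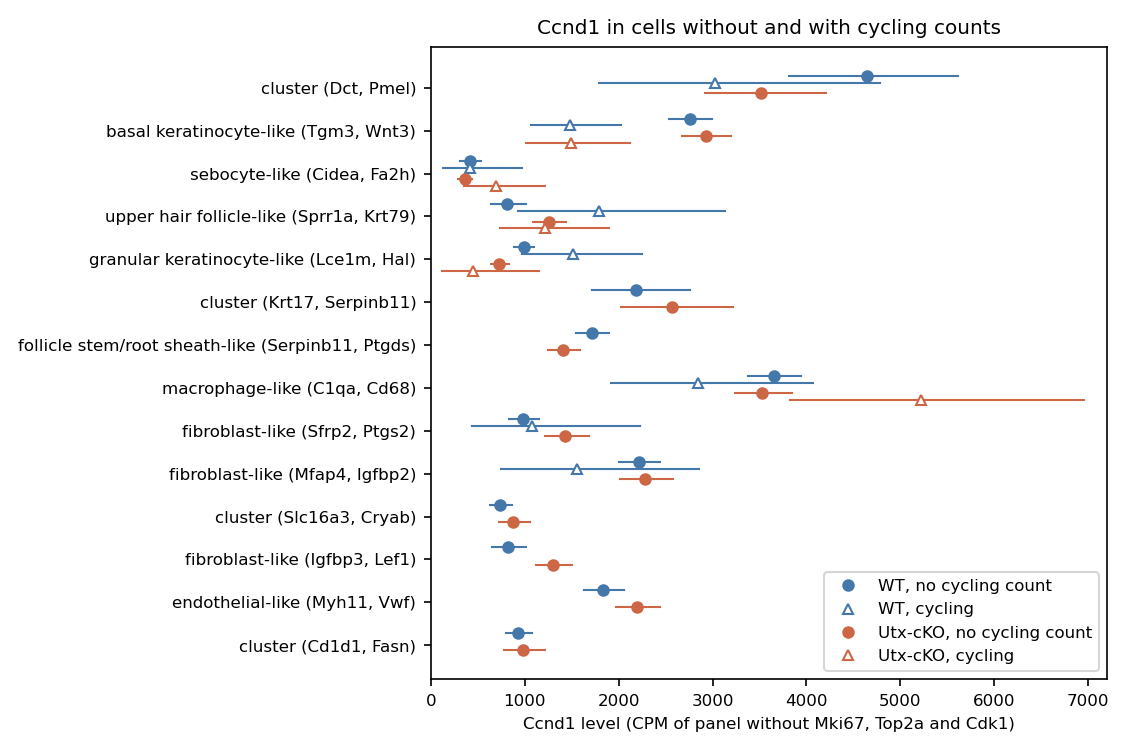
Level of Ccnd1 (CPM of the panel without Mki67, Top2a and Cdk1, horizontal axis) by cluster, in cells with no count of these genes (filled circles) and in cycling cells (open triangles, where at least 50 cells were called), for WT (blue) and Utx-cKO (orange), with exact 95% Poisson intervals. Basal keratinocyte-like cells without cycling transcripts lie at 2760 and 2927 CPM and cycling ones at 1487 and 1493 CPM.

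Other genes of the cell cycle were taken from a list of textbook members, of which 16 were on the panel and 15 had at least 200 counts in each kind of cell. In epithelial cells 0 of the 15 were 1.5 times higher in Utx-cKO and 0 were 1.5 times lower, against 12.5% and 3.19% of all genes, and their median ratio was 0.05 against 0.12. Cdc20, the activator of the complex that starts chromosome separation (0.44), Ube2c, its conjugating enzyme (0.37), and Birc5, survivin of the dividing chromosomes (0.33), were the highest, and Ccnd1 (-0.24) and Rgcc (-0.19) the lowest. With WT strip 3 left out the list median was 0.24, and Ccnd1 was the only one past 1.5-fold. In non-epithelial cells 0 were higher and 1 lower, Rgcc (-0.98, -1.12 to -0.84), against 22.7% and 2.0% of genes, and the list median was 0.26 against 0.22 for all genes. If that strip was left out, 10 were higher, Mki67, Top2a and Cdk1 among them, and Rgcc was lower. Of all genes 34.7% were higher and 2.44% lower. The list median was 0.74 and that of all genes 0.29. Ube2c (1.02), Cdc20 (1.01) and Cenpf (0.93), which encodes a kinetochore protein, were then the highest.

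Cycling epithelial cells were next compared with the other epithelial cells of the same section, the latter weighted to the cluster mix of the cycling ones. They were not weighted by strip. In WT, 303 of the 601 cycling epithelial cells lay in strip 3, against 4380 of all 14551 epithelial cells. The ratios are not given without that strip, and its part in them was not tested. Mki67, Top2a and Cdk1 made the call and were left out. Of 195 genes with at least 50 counts in the cycling cells of each section, 7.18% were 1.5 times higher in both sections. The highest was Cenpf, at 3415 against 143 CPM in WT and 3365 against 169 CPM in Utx-cKO, log2 ratios of 4.58 and 4.31. Birc5 (3.43 and 3.23), Cdc20 (3.14 and 3.31), H2afx, a histone of DNA damage signalling (2.63 and 2.74), and Ube2c (2.62 and 2.54) followed. Then came Rrm2, a subunit of ribonucleotide reductase (2.21 and 2.15), Stmn1, a microtubule destabiliser (2.18 and 2.02), Timeless of the replication fork (1.62 and 1.84), thymidylate synthase Tyms (1.6 and 1.62) and the chromatin protein Hmgb2 (1.56 and 1.62). These genes of DNA copying and of mitosis were thus high in the same cells, and to a like degree in both sections.

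Of 203 genes with enough expected counts, 3.45% were 1.5 times lower in cycling cells of both sections. The lowest were Aloxe3, a lipoxygenase of the skin barrier (-0.82 and -1.24), Ugcg, glucosylceramide synthase (-0.85 and -0.94), the helix-loop-helix gene Id4 (-0.80 and -0.84), desmocollin Dsc1 (-0.73 and -0.84) and Crct1, a gene of the epidermal differentiation complex (-0.63 and -0.83). Ccnd1 had -0.38 and -0.53. Myc, Trp53 and Rgcc, other members of the list, stayed within 1.5-fold in both sections, from -0.53 for Rgcc in Utx-cKO to 0.44 for Trp53 in Utx-cKO. The sections differed for Pttg1, securin, which was named after its values were seen: its ratio was 0.62 in WT, from 105 counts, and 2.02 in Utx-cKO, from 215.

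**Figure D5:**
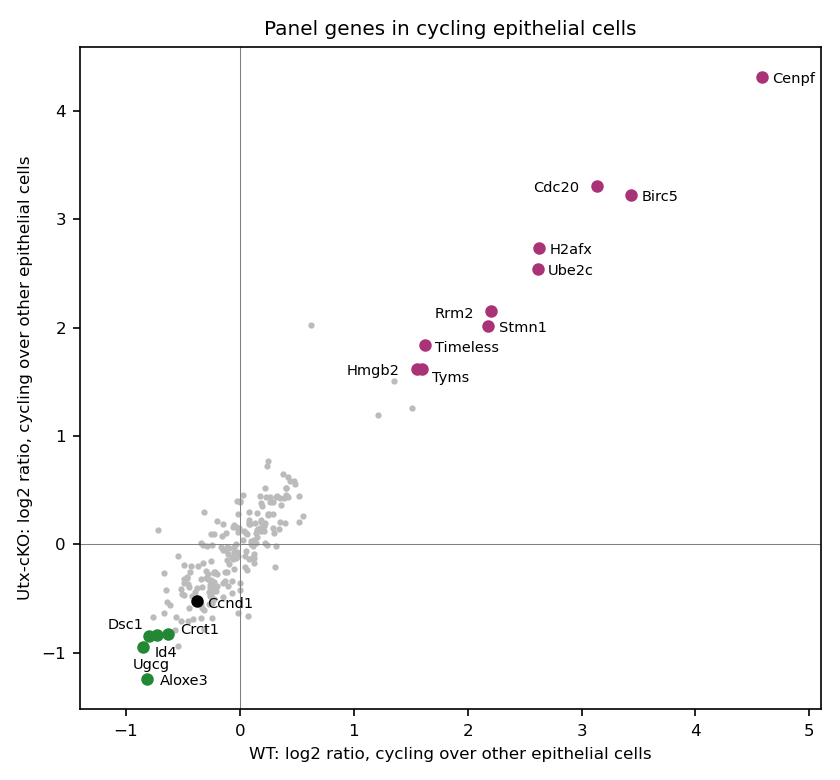
Log2 ratio of cycling over other epithelial cells for each panel gene with enough counts, in WT (horizontal) and Utx-cKO (vertical); the 10 highest genes are purple, the 5 lowest green and Ccnd1 black. The purple genes lie between 1.56 and 4.58 in WT and close to the same values in Utx-cKO.

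Measures that did not enter the call also differed. Cycling epithelial cells had a median nucleus area of 23.9 µm² in WT and 25.3 µm² in Utx-cKO, against 18.8 and 19.3 µm² in other epithelial cells. Within basal keratinocyte-like cells the medians were 23.9 against 19.0 µm² in WT and 25.1 against 19.1 µm² in Utx-cKO. Cell areas were larger too, at 75.4 against 61.5 µm² and 75.8 against 64.0 µm² in epithelial cells. Cycling epithelial cells also held more transcripts of other genes, 101 against 68 in WT and 82 against 56 in Utx-cKO, and a deeper cell reaches 2 counts more easily; the part of depth in the call and in the areas was not tested.

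Cycling cells lay near each other. Another cycling cell was within 30 µm of 69.6% of cycling epithelial cells in WT and 68.3% in Utx-cKO, against 40.7% and 40.5% of other epithelial cells. In non-epithelial cells the shares were 54.3% against 20.9% in WT and 31.3% against 14.7% in Utx-cKO. Upper hair follicle-like cells had 71.6% and 79.8%, and cells of the cluster led by Dct and Pmel 100% in WT. All these shares pool the strips. In WT, 303 of 601 cycling epithelial cells and 231 of 341 cycling non-epithelial cells lay in strip 3, where cycling cells were most frequent. The shares of single strips are not given here, so how far the nearness rests on that strip is not read. The median distance to the nearest granular keratinocyte-like cell was 10.3 µm for cycling basal keratinocyte-like cells and 9.29 µm for the others in WT, and 10.2 and 9.55 µm in Utx-cKO. Keratinocyte markers made up 3.34% of the counts of cycling non-epithelial cells in WT and 2.82% in Utx-cKO, against 3.43% and 3.66% in other non-epithelial cells. Non-epithelial clusters were set apart by low keratinocyte markers, so these values cannot show whether epithelial transcripts had spread into cycling cells.

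Across the 14 clusters of both sections, 28 points, the genes most like each member were found by Pearson's r of log2(CPM + 10) over 470 genes. For Mki67 they were Top2a (0.98), Cdk1 (0.90) and Cenpf (0.90), and for Top2a Mki67, Cdk1 (0.92) and Cenpf (0.91). For Cdk1 they were Top2a, Birc5 (0.91) and Cenpf (0.90). Ccnd1 was most like Kmt2b, a histone methyltransferase gene (0.79), Marcksl1, an actin-binding protein gene (0.76), and Trp53 (0.76), and its r with Mki67 was 0.39. The points share sections, depth and neighbouring cells, and these values are a description.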

How the data were processed

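The 2 Xenium sections were read from the deposited tables of cells, which hold transcript counts, positions and areas for each segmented cell, and from the deposited tables of transcripts, each with a quality score. Transcripts of genes that scored 20 or more were summed by cell and gene, and the sums equal the deposited counts in all 40371 and 52308 cells. Which software decoded the images and outlined the cells is not stated in the labels. The nucleus outlines were not used.

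Cells with at least 20 transcripts were kept (14551 WT and 18743 Utx-cKO cells in epithelial clusters, 18712 and 18652 in others). No doublet caller was run. Scanpy 1.11.5 scaled and log-transformed 464 genes, without the 16 of the cell cycle list, and gave Leiden clusters (30 principal components, 15 neighbours, resolution 1, fixed seed). A cluster was epithelial where keratinocyte markers made up at least 6% of its counts, and was named where at least 3 of 10 leading genes were markers of 1 class, more than of any other, with the kind of cell in accord. These rules, and the strips (connected areas within 100 µm with at least 1000 cells), were chosen after the data were seen. Rebuilt cluster names may differ from the study's.

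No test was possible with 1 section per group. Counts were pooled and scaled to the panel total, genes needed 200 counts (100 within a cluster), and 1.5-fold is a rule of size. Intervals were conditional binomial for ratios, Clopper-Pearson for shares and Poisson for levels (scipy 1.17.1), and cover counting error only. The ratio step was also run on simulated counts with known folds, built from the pooled epithelial levels and depths of these sections. The members, lists and rules were chosen with earlier results of these data known. Genes named are the 4 members, the cell cycle list, the 10 highest and 5 lowest genes in cycling epithelial cells and the 3 most like each member. Alternatives varied the call, score, depth, nucleus counts, clustering, scaling, sides and strips.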

Additional observations from a re-analysis of the deposited data

Results flagged for a closer look

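Transcripts of the 4 genes were also found outside segmented cells, which the comparisons above do not use. In WT there were 212 of Mki67, 176 of Top2a, 98 of Cdk1 and 1060 of Ccnd1, and in Utx-cKO 112, 87, 50 and 777. These numbers were singled out because they exceed the 3 counts that a true 0 allows. Among cells with under 20 transcripts, which were left out, 8 in WT and 27 in Utx-cKO had 2 or more counts of Mki67, Top2a and Cdk1, also above that limit.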

How the results depend on the processing

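Values are log2 ratios of Utx-cKO over WT, with 1 section per group. Leaving out each strip in turn gave -0.38 to 0.35 for the cycling share of epithelial cells and -0.92 to 0.38 for that of non-epithelial cells, where only leaving out WT strip 3 turned the direction (0.38). The ranges in epithelial cells were -0.19 to 0.30 for Mki67, 0.026 to 0.45 for Top2a, -0.15 to 0.49 for Cdk1, -0.63 to 0.10 for Ccnd1 and -0.62 to 0.11 for Ccnd1 outside cycling cells. In non-epithelial cells they were -0.30 to 0.66, -0.24 to 0.77, -0.43 to 0.77, -0.055 to 0.64 and -0.075 to 0.56. Thinned to 20 transcripts and called at 1 or more counts, the shares had 0.17 (epithelial) and 0.17 (non-epithelial). The -0.67 of the non-epithelial share was at 2 or more counts, so both the call and the depth changed there. Without thinning, calls at 1 and 3 counts gave the non-epithelial share -0.13 and -0.95. At the same call of 1 count, thinning thus turned the direction from -0.13 to 0.17. As mean counts per cell the epithelial ratios were -0.27 for Mki67, -0.11 for Top2a, -0.14 for Cdk1, -0.49 for Ccnd1 and -0.46 for Ccnd1 outside cycling cells, and the non-epithelial ones -0.49, -0.36, -0.54, -0.20 and -0.25. Centred on the median of all genes, Mki67 had -0.14, Top2a 0.016 and Ccnd1 -0.36 in epithelial cells, and Mki67 -0.22, Top2a -0.092, Cdk1 -0.26, Ccnd1 0.069 and Ccnd1 outside cycling cells 0.014 in others. Over the nucleus alone Top2a (0.24) and Ccnd1 (-0.11) moved in epithelial cells, and Ccnd1 (0.16) and Ccnd1 outside cycling cells (0.13) in others. With clusters at equal shares epithelial Ccnd1 had -0.069, and -0.077 outside cycling cells. A score of 30 gave epithelial Mki67 -0.14, and cells with at least 40 transcripts non-epithelial Top2a -0.043. Epithelial cells called by their own markers gave non-epithelial Ccnd1 0.18, and 0.13 outside cycling cells. The left sides gave epithelial Top2a 0.025, non-epithelial Ccnd1 0.40 and 0.34 outside cycling cells, and the right sides non-epithelial Mki67 -0.14 and Ccnd1 0.17 and 0.12. The cause of these shifts was not tested. A share or gene ratio was taken to stay where it lay within the counting interval of the value reported. For list counts the limit was an equal or at most 1.5-fold different count, and for nucleus areas the quartile range. Of 278 alternatives to these and the list and nucleus results, 203 stayed within these limits and 73 moved beyond them. The other 2, both of the non-epithelial share, turned a ratio that was past 1.5-fold; smaller ratios of all 4 genes and of the epithelial share also changed sign, as the ranges show. No paired analysis was possible because each group has 1 section. Depth, at medians of 62 and 48 transcripts a cell, limits the call of single cells.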
